A study of Mus musculus with 12 samples.

Results

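The 10 genes described here encode enzymes and carriers of mitochondrial fatty acid oxidation, namely Fabp3, Cpt1a, Cpt1b, Cpt2, Acadvl, Acadl, Acadm, Acads, Hadha and Hadhb. They were taken by symbol from a table of 23427 genes, and all 10 had a value in all 4 RNA libraries. The RNA came from cells of the mouse embryonic stem cell line CM7/1 after differentiation in vitro, which the labels call cardiomyocytes. One derivative of the line carried inducible Hey1 and the other inducible Hey2, both repressors of transcription that act below Notch. Induced cells received doxycycline at 1000 ng/ml for 48 h. Each line gave 1 library with and 1 without induction, 4 groups in all. Doxycycline-treated cells lacking an inducible Hey gene were not analysed here, so drug and Hey effects cannot be told apart. Whether each line is a single clone is not given in the sources used here.

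Fatty acid oxidation is the main fuel pathway of the adult heart. Cytosolic binding proteins carry fatty acids, the carnitine palmitoyltransferases bring their acyl groups across the mitochondrial membranes, and chain-length-specific dehydrogenases start each round of beta-oxidation. The trifunctional protein completes the round for long chains. Pluripotent stem cells and the early embryonic heart are known to rely more on glycolysis, and the pathway is known to grow as cardiomyocytes mature.

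Values are in RPKM, the read number divided by gene length and library depth, which allows levels of different genes to be compared. With 1 library per group there was no replicate spread and no test. The 95% intervals given in brackets come from the read numbers recovered from each value and cover counting error only. They treat every read as independent, which PCR copies are not, so they may be too narrow. The libraries held between 2296193 and 4182233 reads in listed genes, and the 10 genes rested on 36 to 2049 reads each. Hey1 stood at 0.735 and 8.59 RPKM in uninduced and induced Hey1-line cells, and Hey2 at a blank value and 6.59 RPKM in those of the Hey2 line.

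The Hey2-line libraries went against their label in part. The 18 sarcomere genes used as cardiomyocyte markers, all listed in every library, summed to 29424 and 30225 RPKM in uninduced and induced Hey1-line cells but to only 1687 and 1760 RPKM in the Hey2 line. The 12 pluripotency genes summed to 43.1 and 33.6 RPKM in the Hey1 line, where Dppa4 was blank, and to 497 and 492 RPKM in the Hey2 line. Every comparison between the lines therefore compares cultures of different make-up, and in these bulk samples fewer cardiomyocytes and less RNA per cardiomyocyte cannot be told apart. The inductions are given within each line, so that neither rests on the other line.

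The fatty acid oxidation genes were abundant in Hey1-line cells, and lower in those of the Hey2 line. Their median level was 30.2 and 29.2 RPKM in uninduced and induced Hey1-line cells, against 9.56 and 9.66 RPKM in the Hey2 line. Fabp3 and Acadl alone made up 59.4% to 64.3% of the summed RPKM of the 10 genes in each library. The highest member stood 24.996 to 56.8 times above the lowest, depending on the library.

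**Figure D1:**
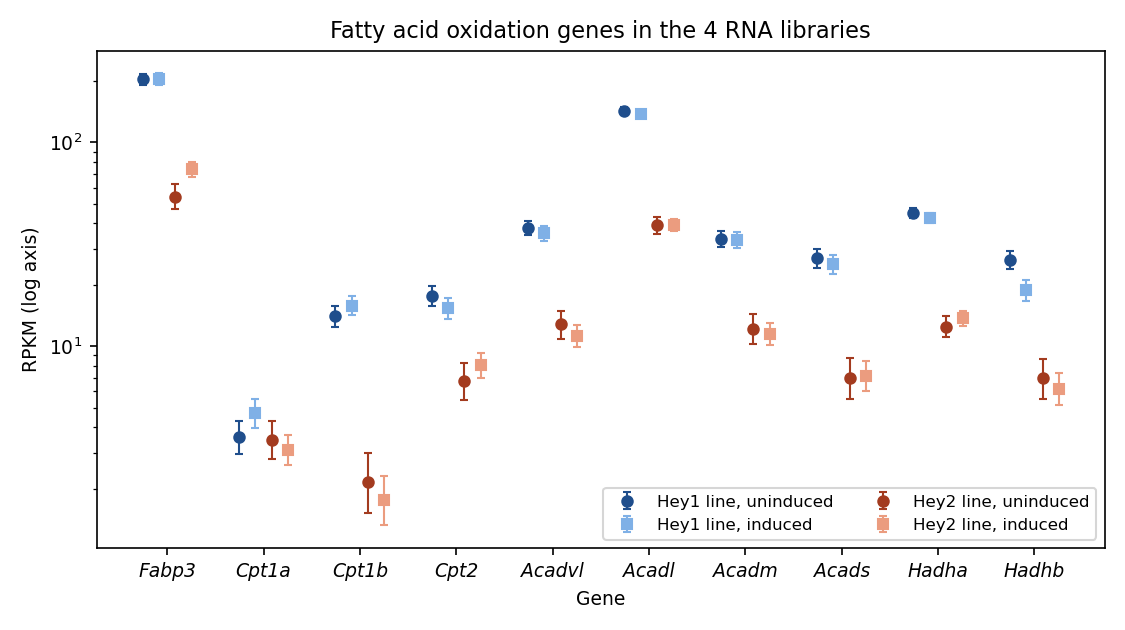
RPKM of the 10 fatty acid oxidation genes (log axis) in each of the 4 libraries, with circles for uninduced and squares for induced cells and bars for the 95% Poisson interval of the reads. The Hey1-line values (blue) lie above the Hey2-line values (red) with separate intervals for every gene except Cpt1a, which stood at 3.58 and 3.48 RPKM without induction.

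Fabp3 encodes the heart fatty acid binding protein, which carries long-chain fatty acids through the cytosol of muscle cells. It was the highest member in every library, at 204 RPKM (191 to 217) without and 205 RPKM (192 to 218) with induction in the Hey1 line, and at 54.1 RPKM (46.8 to 62.1) and 73.6 RPKM (67.3 to 80.5) in the Hey2 line. The Hey1-line libraries were alike and well above both Hey2-line libraries. The gene was 3.76-fold lower (3.23 to 4.41) in the Hey2 line without induction and 2.78-fold lower (2.49 to 3.11) with it. Its reads may be shared with the pseudogene Fabp3-ps1 and with Zcchc17, whose span overlaps it. RefSeq also places another gene over part of Acadl, Acadvl, Hadhb, Cpt1a and Cpt1b, and their values are uncertain to the extent that counting shared those reads.

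Entry into the mitochondrion is catalysed by carnitine palmitoyltransferase 1 on the outer membrane, of which Cpt1a encodes the liver form and Cpt1b the muscle form. Cpt1b stood at 14.0 RPKM (12.5 to 15.7) without and 15.8 RPKM (14.2 to 17.6) with induction in the Hey1 line, and at 2.16 RPKM (1.52 to 2.995) and 1.77 RPKM (1.32 to 2.31) in the Hey2 line. Cpt1a stood at 3.58 RPKM (2.95 to 4.30) and 4.68 RPKM (3.96 to 5.49) in the Hey1 line and at 3.48 RPKM (2.78 to 4.29) and 3.09 RPKM (2.60 to 3.65) in the Hey2 line. Cpt1b thus differed far more between the lines than Cpt1a, whose uninduced levels overlapped within counting error. Cpt1b was 6.48-fold lower (4.57 to 9.42) in uninduced Hey2-line cells and 8.95-fold lower (6.69 to 12.2) in induced ones. The induced interval lay above those of all other 9 genes, and the uninduced one overlapped those of Acads and Hadhb. For Cpt1a the gaps were 1.03-fold (0.772 to 1.38) and 1.51-fold (1.19 to 1.92). The uninduced interval lay under those of all other 9 genes, and the induced one overlapped that of Cpt2.

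The muscle form therefore made up most of the Cpt1 RPKM in 1 line only. Cpt1b was 79.6% of Cpt1a and Cpt1b together (75.9 to 83.0) in uninduced and 77.1% (73.5 to 80.5) in induced Hey1-line cells. In the Hey2 line it was 38.4% (29.0 to 48.1) and 36.3% (29.0 to 44.1). The Hey1-line shares lay above both Hey2-line shares, and the libraries of a line overlapped. The ratio of Cpt1b to Cpt1a was 6.29-fold higher (3.95 to 10.1) in the Hey1 line without induction and 5.91-fold higher (4.02 to 8.73) with it, a comparison that does not depend on how the libraries are scaled. Within a line induction left this ratio at 0.863 times (0.640 to 1.16) and 0.917 times (0.540 to 1.57) its uninduced value. Another form, the brain gene Cpt1c, went the other way, at 2.35 and 2.49 RPKM in the Hey1 line and 6.22 and 5.41 RPKM in the Hey2 line, and was named after its values were seen.

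**Figure D2:**
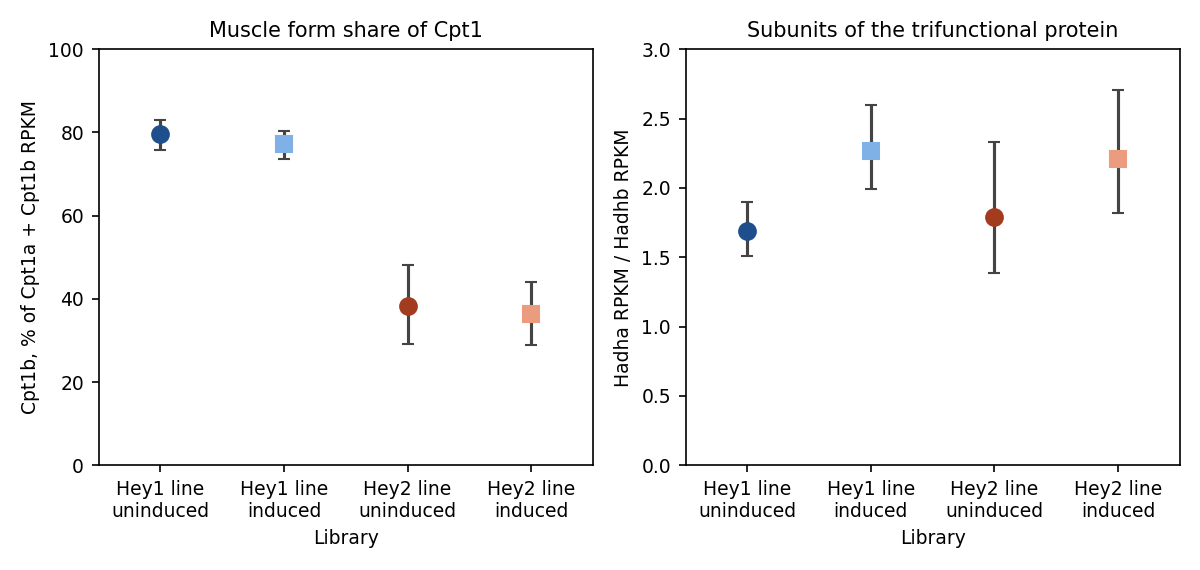
Left, Cpt1b as a percentage of the summed RPKM of Cpt1a and Cpt1b, and right, the ratio of Hadha RPKM to Hadhb RPKM, in each of the 4 libraries, with bars for the exact 95% counting interval. The Cpt1b share is 79.6% and 77.1% for the Hey1 line, against 38.4% and 36.3% for the Hey2 line, whereas the subunit ratio is 1.69 and 1.79 in the uninduced and 2.27 and 2.21 in the induced libraries.

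Cpt2, the inner membrane transferase that reforms the acyl-CoA, stood at 17.6 RPKM (15.7 to 19.7) and 15.3 RPKM (13.5 to 17.3) in uninduced and induced Hey1-line cells. In the Hey2 line it stood at 6.73 RPKM (5.42 to 8.27) and 8.08 RPKM (6.99 to 9.29). Both Hey1-line libraries were higher than both of the Hey2 line, by 2.61-fold (2.06 to 3.34) without and 1.90-fold (1.57 to 2.29) with induction.

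The acyl-CoA dehydrogenases catalyse the first step of each round, Acadvl for very long, Acadl for long, Acadm for medium and Acads for short chains. Acadl was the highest of them, at 142 RPKM (136 to 148) and 137 RPKM (131 to 143) in uninduced and induced Hey1-line cells and at 39.3 RPKM (35.7 to 43.1) and 39.4 RPKM (36.7 to 42.3) in the Hey2 line. It ranked above 98.7% of the compared genes in uninduced Hey1-line cells and above 93.7% in uninduced Hey2-line cells. Acadvl stood at 38.0 RPKM (35.0 to 41.1) and 35.7 RPKM (32.9 to 38.7) in the Hey1 line and at 12.8 RPKM (10.9 to 14.9) and 11.2 RPKM (9.90 to 12.7) in the Hey2 line. All 4 dehydrogenase genes kept the pattern of Acadl, with alike libraries within a line and a wide gap between the lines. Acadm stood at 33.5 RPKM (30.6 to 36.5) and 33.2 RPKM (30.4 to 36.2) in the Hey1 line and at 12.1 RPKM (10.2 to 14.3) and 11.5 RPKM (10.1 to 13.0) in the Hey2 line. Acads stood at 27.0 RPKM (24.3 to 29.8) and 25.2 RPKM (22.7 to 28.0) in the Hey1 line and at 6.98 RPKM (5.49 to 8.74) and 7.16 RPKM (6.02 to 8.46) in the Hey2 line.

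The order of the dehydrogenases by level was Acadl, Acadvl, Acadm and Acads in 3 libraries. In induced Hey2-line cells Acadm stood above Acadvl, with overlapping intervals. Acadvl and Acadm overlapped in every library, whereas Acadl and Acads lay apart from them. Without induction Acads was 3.86-fold lower (3.01 to 5.02) in the Hey2 line, Acadl 3.62-fold lower (3.26 to 4.02), Acadvl 2.97-fold lower (2.49 to 3.55) and Acadm 2.76-fold lower (2.29 to 3.34). With induction these gaps were 3.52-fold (2.89 to 4.32), 3.47-fold (3.20 to 3.78), 3.18-fold (2.74 to 3.70) and 2.88-fold (2.47 to 3.37) in the same order. The intervals of these 4 gaps overlapped pairwise in both comparisons, so the genes cannot be ordered by the size of their gap.

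Hadha and Hadhb encode the alpha and beta subunits of the mitochondrial trifunctional protein, which holds the hydratase, 3-hydroxyacyl-CoA dehydrogenase and thiolase of long-chain oxidation. Hadha stood at 44.9 RPKM (42.5 to 47.5) and 42.7 RPKM (40.3 to 45.2) in uninduced and induced Hey1-line cells and at 12.5 RPKM (11.04 to 14.0) and 13.7 RPKM (12.5 to 14.9) in the Hey2 line. Hadhb stood at 26.6 RPKM (24.0 to 29.4) and 18.8 RPKM (16.7 to 21.2) in the Hey1 line and at 6.96 RPKM (5.50 to 8.69) and 6.18 RPKM (5.15 to 7.37) in the Hey2 line. Both subunits were higher in the Hey1 line, and Hadhb was also lower in the induced than in the uninduced Hey1-line library. Hadha was 3.60-fold lower (3.16 to 4.12) in uninduced Hey2-line cells and Hadhb 3.82-fold lower (2.98 to 4.93). The induced gaps were 3.12-fold (2.82 to 3.46) and 3.04-fold (2.45 to 3.79).

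The ratio of Hadha to Hadhb was 1.69 (1.51 to 1.90) in uninduced and 2.27 (1.99 to 2.60) in induced Hey1-line cells, and 1.79 (1.39 to 2.33) and 2.21 (1.82 to 2.71) in the Hey2 line. It was thus alike in the lines and higher in each induced library. With Hey1 induction the ratio was 1.34-fold higher (1.12 to 1.60), and with Hey2 induction 1.23-fold higher (0.885 to 1.71), the latter within counting error. Between the lines it was 0.944 times (0.707 to 1.252) without and 1.03 times (0.805 to 1.30) with induction, Hey1 line over Hey2 line. These ratios do not depend on library scaling. A pseudogene, Hadhb-ps, exists, and the handling of reads with several matches is unknown here.

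Hadha and Hadhb lie head to head, with 273 bases between their RefSeq starts, so that their promoter windows share 228 bases. The window of Hadhb is shown because it holds the 228 shared bases, whose part in the subunit ratio was not tested. The window runs from 250 bases before to 50 bases after the start, 5′ to 3′, from the RefSeq promoter table of GRCm38.p6, and the capitals mark the shared stretch.
Hadhb, GRCm38.p6 chr5:30155003-30155302, plus strand: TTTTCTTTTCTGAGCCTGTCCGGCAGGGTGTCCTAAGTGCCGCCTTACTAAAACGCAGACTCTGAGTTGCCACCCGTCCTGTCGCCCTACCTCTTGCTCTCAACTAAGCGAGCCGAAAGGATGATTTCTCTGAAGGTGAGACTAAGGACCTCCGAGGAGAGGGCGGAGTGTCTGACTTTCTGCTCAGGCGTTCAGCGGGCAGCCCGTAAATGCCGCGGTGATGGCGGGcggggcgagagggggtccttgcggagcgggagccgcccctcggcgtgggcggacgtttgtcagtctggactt

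The RefSeq table held promoter windows of the same size for 9 of the 10 genes, all but Cpt1b. They were searched on both strands for AGGTCA, the core motif of nuclear receptors such as the PPAR and ERR families that are known to act on fatty acid oxidation genes, for its longer form TCAAGGTCA, which contains AGGTCA, and for CACGTG and CACGCG, E-box words bound by Hey proteins. AGGTCA was in 3 of the 9 windows and in 16.3% of all 32851 windows. TCAAGGTCA (0.423% of all windows), CACGTG (7.15%) and CACGCG (9.27%) were in 0 of the 9, which says only that these letters are absent there. The windows with AGGTCA, or TGACCT where it lies on the other strand, are shown with the match in capitals, and the matches begin at base -249 for Acadm, -87 for Acadvl and -94 for Cpt1a, counted from the start.
Acadm, GRCm38.p6 chr3:153944594-153944893, minus strand: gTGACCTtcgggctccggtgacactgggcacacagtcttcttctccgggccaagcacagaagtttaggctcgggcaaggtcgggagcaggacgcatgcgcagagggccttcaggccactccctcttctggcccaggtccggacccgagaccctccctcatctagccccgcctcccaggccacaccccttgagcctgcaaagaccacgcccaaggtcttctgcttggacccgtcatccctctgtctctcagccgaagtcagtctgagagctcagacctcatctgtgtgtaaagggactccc
Acadvl, GRCm38.p6 chr11:70015379-70015678, minus strand: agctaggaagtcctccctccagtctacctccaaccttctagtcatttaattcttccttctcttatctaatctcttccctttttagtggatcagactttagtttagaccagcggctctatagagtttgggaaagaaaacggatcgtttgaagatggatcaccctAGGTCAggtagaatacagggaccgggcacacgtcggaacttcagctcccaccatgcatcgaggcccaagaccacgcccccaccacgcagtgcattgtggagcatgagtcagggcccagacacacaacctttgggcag
Cpt1a, GRCm38.p6 chr19:3323051-3323350, plus strand: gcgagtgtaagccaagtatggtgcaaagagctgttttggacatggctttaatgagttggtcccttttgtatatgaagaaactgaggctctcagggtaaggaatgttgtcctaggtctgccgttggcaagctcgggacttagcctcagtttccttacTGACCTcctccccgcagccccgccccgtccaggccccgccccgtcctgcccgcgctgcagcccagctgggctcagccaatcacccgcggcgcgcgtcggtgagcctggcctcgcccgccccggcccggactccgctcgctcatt
Acadm and Acadvl followed the common pattern of the 10 genes and Cpt1a did not. Whether the matches bear on the levels was not tested.

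The comparison between the lines was then set against all genes. A gene was compared when it had 4 values and a mean of at least 1 RPKM, which left 10991 genes, and differences are of log2(RPKM + 1), which understates those of low genes. In uninduced cells 9 of the 10 genes were lower in the Hey2 line by 2-fold or more, and 0 were higher, where 13.1% of all compared genes were lower and 19.7% higher by that size. The exception was Cpt1a. Their median difference was -1.78 on this scale (range -2.25 to -0.03), against 0.20 over all genes. In induced cells, which share no library with the uninduced ones, 8 of 10 were lower by 2-fold or more and 0 higher, against 12.3% and 22.8% of all genes. The median was -1.52 (range -2.60 to -0.47), against 0.27 over all genes, and the exceptions were Cpt1a and Cpt2. Median ratio scaling puts the typical gene 0.22 (uninduced) and 0.31 (induced) higher in the Hey2 line on the log2 scale, and relative to it each of the 10 genes lay lower by about that much. Under median ratio and upper quartile scaling 9 of the 10 were lower by 2-fold or more in induced cells, Cpt2 among them.

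The gap was narrower than that of the sarcomere genes. All 18 sarcomere genes were lower by 2-fold or more in both comparisons, with a median of -3.88 without and -3.93 with induction, so the fatty acid oxidation median lay 2.10 and 2.41 above it on the log2 scale. As ratios of RPKM the median gap was 3.61-fold and 3.08-fold for the fatty acid oxidation genes and 15.0-fold and 15.5-fold for the sarcomere genes. Each of the 10 genes lay above the sarcomere median in both comparisons. Cpt1b came nearest to it. The groups overlapped, because the sarcomere gene Myom2 differed by only -1.01 and -1.34, less than all but 1 and 2 of the 10 genes. The part of the differing marker levels in these gaps was not tested.

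As RNA markers of mitochondrial content, which was not itself measured, 11 genes of the outer membrane, import and chaperones were examined. They did not move as 1 group. Their summed RPKM was 556 and 479.5 in uninduced and induced Hey1-line cells and 552 and 526 in the Hey2 line. Their median differences between the lines were 0.21 and 0.04, and -0.01 and -0.23 under median ratio scaling. In the deposited values 0 of 11 were lower by 2-fold or more and 3 higher in each comparison. The 3 (27.3%) were near the share of all genes higher by that size, 19.7% without and 22.8% with induction. As deposited, 5 were higher and 4 lower by 5 to 4 or more in RPKM + 1 without induction. The lower ones were Vdac1, Vdac2, Vdac3 and Timm44. With induction 5 were higher and 3 lower as deposited, and 3 higher and 5 lower under median ratio scaling. No share of all genes at 5 to 4 was computed between the lines, so these counts have no background. The part of mitochondrial content in the gaps was not tested. Markers of other cells were present at differing levels. The 6 smooth muscle genes, which immature cardiomyocytes also express in part, summed to 337 and 364 RPKM in uninduced and induced Hey1-line cells. For the Hey2 line the sums were 156 and 188 RPKM. Acta2 stood at 217 and 253 RPKM against 45.6 and 49.5 RPKM. Of the 5 compared genes Acta2, Cnn1 and Myocd were lower in the Hey2 line by 2-fold or more in both comparisons. Tagln and Smtn were higher, by at most 0.30 without and 0.86 with induction on the log2(RPKM + 1) scale. The 6 fibroblast genes summed to 36.8 and 33.1 RPKM against 59.4 and 75.8 RPKM, mostly Col1a1. The 8 yolk sac and liver genes summed to 69.7 and 50.9 RPKM against 15.9 and 15.7 RPKM. Afp alone stood at 58.5 and 42.0 RPKM in Hey1-line cells and made up most of those sums. Ttr was also lower in the Hey2 line, and Alb was blank there. Cubn went the other way, at 0.346 and 0.235 RPKM against 5.21 and 5.92 RPKM. Foxa2 was blank and 0.815 RPKM against 4.33 and 3.26 RPKM. Sox17 and Apob had values in the Hey2 line only, so the sums do not give the direction of the list as a whole. All 5 adipocyte genes were blank in every library. The 6 endothelial genes summed to 2.69 and 2.67 RPKM in the Hey1 line and 7.31 and 7.66 RPKM in the Hey2 line. The 8 skeletal muscle genes summed to 48.9 and 45.6 RPKM against 18.7 and 27.8 RPKM. Of these, Ckm, which the heart also expresses, stood at 32.3 and 30.6 RPKM against 0.860 and 1.09 RPKM. Myh3 stood at 1.83 and 3.76 RPKM against 0.929 and 0.772 RPKM. Acta1 ranged from 6.11 to 21.6 RPKM and went the other way. On the log2(RPKM + 1) scale it was higher in the Hey2 line by 0.57 without and 1.67 with induction. The defining factors Myog and Myod1 were blank in every library. The part of these cells in the gaps was not tested.

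The other lists of lipid oxidation genes had medians nearer to 0. Of 14 further mitochondrial beta-oxidation and electron transfer genes 7 were lower by 2-fold or more without induction and 0 higher, with a median of -0.93. With induction 4 were lower and the median was -0.70, and under median ratio scaling 7 were. Of all genes 13.1% were lower and 19.7% higher by that size without induction, and 12.3% and 22.8% with it. Acaa2, a thiolase of medium chains, stood at 52.7 and 41.8 RPKM in the Hey1 line and at 12.6 and 13.0 RPKM in the Hey2 line, 4.17-fold lower (3.39 to 5.16) without induction. Etfdh, which passes the electrons to ubiquinone, was 3.90-fold lower (3.06 to 5.03), and Etfb, a subunit of its electron donor, 3.51-fold lower (2.92 to 4.25). The partner subunit gene Etfa went the other way, at 17.4 and 11.8 RPKM in the Hey1 line and 24.2 and 20.5 RPKM in the Hey2 line. Among peroxisomal genes 2 of 9 (22.2%) were lower by 2-fold or more (median -0.41), a share near the 13.1% of all genes. Among ketone body genes 2 of 4 were lower by that size (median -1.13), and 4 of 4 under both other scalings.

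Genes that feed and control the pathway were described list by list. Of 14 compared genes of uptake, activation and carnitine handling 6 were lower and 4 higher by 2-fold or more without induction (median -0.16), and 4 and 3 with it. Those were 42.9% and 28.6% of the list without induction, against 13.1% and 19.7% of all genes. With induction they were 28.6% and 21.4%, against 12.3% and 22.8%, so the share higher was near the background. The carnitine acetyltransferase gene Crat was 6.65-fold lower (5.11 to 8.77) and the lipoprotein lipase gene Lpl 4.14-fold lower (3.70 to 4.64), whereas the acyl-CoA synthetase genes Acsl3 and Acsl4 were 8.25-fold higher (6.98 to 9.81) and 5.10-fold higher (4.23 to 6.19). Malonyl-CoA, which inhibits Cpt1, is made by 2 carboxylases that went opposite ways. Acacb, the mitochondrial form of muscle, stood at 9.70 and 10.9 RPKM in the Hey1 line and at 1.39 and 1.98 RPKM in the Hey2 line, 6.96-fold lower (5.41 to 9.08). Acaca, the cytosolic form of fatty acid synthesis, stood at 2.06 and 2.14 RPKM in the Hey1 line and at 5.85 and 6.16 RPKM in the Hey2 line, 2.84-fold higher (2.31 to 3.49). Of 9 fatty acid synthesis genes 4 were higher by 2-fold or more and 0 lower (median 0.50), against 19.7% and 13.1% of all genes. Among the 4 were the elongase gene Elovl6 at 5.47-fold (4.50 to 6.70) and the synthase gene Fasn at 2.19-fold (2.05 to 2.34). Scd2 went the other way, at 135 RPKM in uninduced Hey1-line and 72.9 RPKM in uninduced Hey2-line cells, 1.86-fold lower (1.77 to 1.95). Under both other scalings 3 were higher and 1 lower, which was Scd2, and Fasn was not among the 3. With induction 3 were higher and 0 lower in the deposited values. Of 7 compared regulators 4 were lower by 2-fold or more (median -1.35), against 13.1% of all genes. They were the coactivator genes Ppargc1a, 4.99-fold (3.23 to 8.02), and Ppargc1b, 5.58-fold (3.56 to 9.16), and the nuclear receptor genes Esrra, 3.71-fold (2.84 to 4.90), and Esrrg, 4.72-fold (3.53 to 6.42). Angptl4, Ppara and Pparg were not compared. Angptl4 had values in the Hey2 line only, at 1.19 and 0.962 RPKM. Ppara stood at 0.556 and 0.443 RPKM in the Hey1 line, and at a blank value and 0.115 RPKM in the Hey2 line. Pparg was blank in every library.

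The question of the inductions was whether Hey1 or Hey2 moves these genes within a line. With Hey1 induction most of the 10 genes differed by less than counting error could show. On the log2(RPKM + 1) scale 0 of 10 were higher or lower by 2-fold or more, where 0.0273% and 0.109% of all genes were. By a ratio of at least 5 to 4 in RPKM + 1, here called the smaller size, 1 was lower and 0 higher, against 12.6% and 3.28% of all genes, a share near the background. The median difference was -0.06, the same as over all genes. All genes split into 361 higher and 1384 lower by the smaller size, and into 736 and 911 after median ratio scaling, under which 1 of the 10 genes was lower and 1 higher.

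The gene lower by that size was Hadhb, 1.41-fold lower (1.21 to 1.65) in the induced Hey1-line library. Cpt1a was 1.31-fold higher (1.02 to 1.68), short of the smaller size on the log2(RPKM + 1) scale but past it under both other scalings. The intervals of the other 8 genes held 1. That of Cpt1b, at 1.13 times (0.963 to 1.32), lay off 1 under median ratio scaling, at 1.20 (1.02 to 1.41), and under upper quartile scaling, at 1.18 (1.01 to 1.38). The most precise of them were Acadl at 0.964 times (0.906 to 1.03), Hadha at 0.950 times (0.878 to 1.03) and Fabp3 at 1.01 times (0.920 to 1.10), so that larger differences than these bounds were outside counting error. In the same comparison 6 of the 14 other mitochondrial genes were lower by the smaller size and 0 higher (median -0.27), a count of 3 under median ratio as under upper quartile scaling, among them Etfa, 1.47-fold lower (1.17 to 1.85), and Echs1, the short-chain hydratase gene, 1.42-fold lower (1.20 to 1.67). The sarcomere median was 0.05 and the pluripotency median -0.17.

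**Figure D3:**
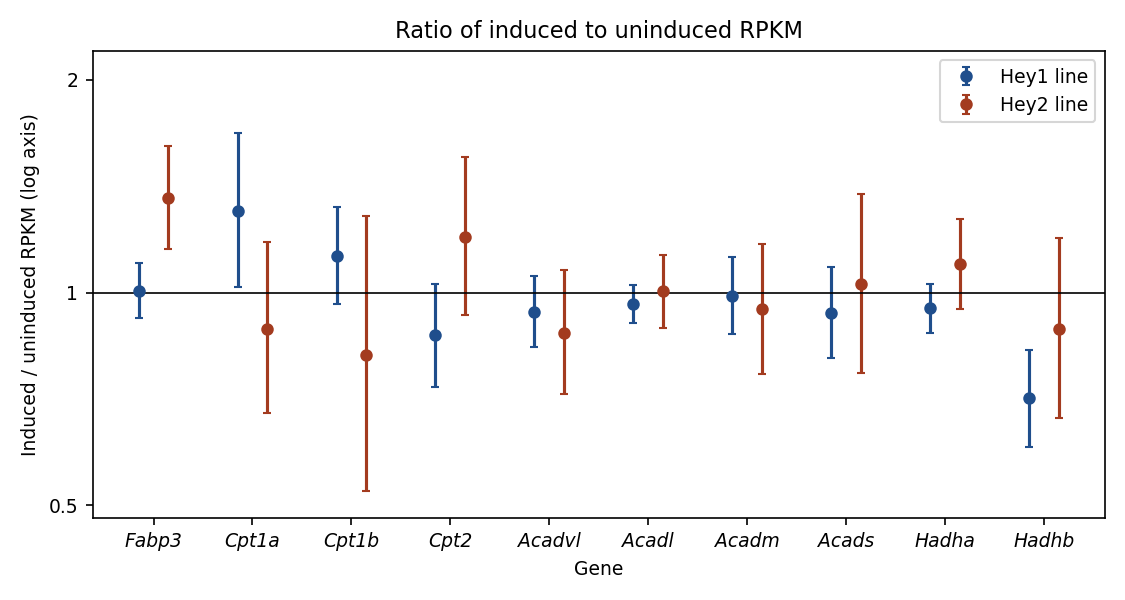
Ratio of induced to uninduced RPKM (log axis) of the 10 genes in the Hey1 line (blue) and the Hey2 line (red), with bars for the exact conditional binomial 95% interval of the reads. Intervals lie off 1 for Hadhb (0.708) and Cpt1a (1.31) in the Hey1 line and for Fabp3 (1.36) in the Hey2 line.

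With Hey2 induction 0 of 10 genes differed by 2-fold or more, where 0.0091% of all genes were higher and 0.0364% lower. By the smaller size 1 was higher and 0 lower, against 5.62% and 5.9% of all genes. The median difference was -0.03, against 0.00 over all genes. The higher gene was Fabp3, at 1.36-fold (1.15 to 1.61), and the intervals of the other 9 held 1. Cpt2 stood at 1.20 times its uninduced value (0.931 to 1.56), Hadha at 1.10 times (0.947 to 1.27) and Hadhb at 0.888 times (0.664 to 1.19). Acadl was nearly equal at 1.00 times (0.892 to 1.13). Of the 14 other mitochondrial genes 1 was higher by the smaller size and 0 lower (median 0.02), which was Etfdh at 1.41-fold (1.08 to 1.85), and the sarcomere median was 0.05.

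The inductions were set beside each other on the ratio scale. The Hey2 induction ratio divided by the Hey1 induction ratio was 1.35 (1.12 to 1.64) for Fabp3, 1.38 (1.01 to 1.88) for Cpt2 and 0.680 (0.466 to 0.995) for Cpt1a. These 3 of the 10 genes had intervals off 1, those of Cpt2 and Cpt1a barely, and counting error is the only error in them. Under median ratio and upper quartile scaling the Cpt2 ratio was 1.30 (0.955 to 1.77) and 1.33 (0.977 to 1.81), so that its interval held 1, while those of Fabp3 and Cpt1a stayed off 1. On the log2(RPKM + 1) scale the difference of the inductions ranged from -0.44 to 0.43 with a median of 0.09, which was 0.0076 under median ratio and 0.040 under upper quartile scaling.

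The genes nearest in pattern to the mean profile of the 10 were sought by the Euclidean distance of centred log2(RPKM + 1) over the 4 libraries. Among the nearest were Tm2d2 at 0.020, Mfhas1 at 0.025, and Pcdhgb7 and Pcdhga11 at 0.045 and 0.046. Pcdhgb7 and Pcdhga11 belong to a protocadherin cluster whose genes share exons, so their values are not independent. The members themselves lay from 0.12 (Acadm) to 1.30 (Cpt1a) from their own mean, with Cpt1b at 0.93 and Cpt2 at 0.50, so the 3 carnitine transferase genes were the least typical of the 10. With 4 libraries such nearness is a description only.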

How the data were processed

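The authors deposited RPKM values, 1 column per RNA library, and a signed fold score for each line, which equals the ratio of the RPKM columns (or minus its inverse) in all 11917 and 14053 genes that have one. The submitters' processing notes name build mm9 and the tools Bowtie 1.0, MACS 1.4.1 and DESeq, with no role for any. Annotation, read counter and strand handling: not given in the sources used here. The 8 chromatin samples and any protein sequences were not analysed here.

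Blank cells occur and zeros do not. Each library's depth divisor was sought on a grid of 0.025 M reads by multiplying RPKM by RefSeq gene spans. The smallest value that gave close to the most whole read numbers was taken (7.4, 7.5, 5.75 and 10.375 M, from 263 to 404 genes). Whole multiples of a divisor also give whole reads, so the read numbers and interval widths rest on taking the smallest. Whole reads at a whole length of up to 25000 bases then came back for 15363 of 15371 genes (99.9%), within 3e-06 reads or that amount per 1000 reads. For 626 genes the length was raised to a multiple so that no listed value fell under 10 reads (Hey1 line) or 5 (Hey2 line), floors set after seeing the values.

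Ratios have exact conditional binomial 95% intervals and levels exact Poisson ones. Ratios of ratios have exact conditional odds ratio intervals. No p-value was computed, because each group has 1 library. Copies of 1 entry were left out. Lists were matched by symbol, or by Entrez ID where the table has an older symbol (Eci1, Eci2, Dppa5a, Lin28a and Plin1). Named list genes are those with the largest differences (4 between uninduced lines and 2 per induction in each list), others being chosen after their values were seen, and some are not reported here. The genes and lists were chosen with earlier results of these data known. The effect of the other scalings on intervals and list counts was added after seeing the data. Alternatives were another pseudocount, filter, scaling and reading of blanks. Python 3.11.15, NumPy 2.4.6, pandas 2.3.3, SciPy 1.17.1 and Matplotlib 3.10.9 were used.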

Additional observations from a re-analysis of the deposited data

Results flagged for a closer look

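In the deposited values the 2 inductions differed by more than counting error for 3 of the 10 genes, with Hey2 induction over Hey1 induction at 1.35 for Fabp3, 1.38 for Cpt2 and 0.680 for Cpt1a. For Cpt2 this was lost under median ratio scaling, at 1.30 (0.955 to 1.77), and under upper quartile scaling, at 1.33 (0.977 to 1.81). Each induction rests on 1 library per group, so the difference has no replicate check.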

How the results depend on the processing

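No paired analysis was possible because each group has 1 library and no test was made. Of the alternatives for the main values of the 10 genes and lists, 113 of 128 kept the value within a margin or the count within 1.5 times. For a median the margin was the counting error of a typical single gene, not that of the median. Dropping the filter and reading blanks as 0 could not change the values of the 10 genes, so those cases were kept in advance. The count of members higher by a ratio of 5 to 4 or more with Hey1 induction went from 0 to 1 at a pseudocount of 0.1 RPKM and under median ratio and upper quartile scaling. The induced line median was -1.82 under median ratio scaling. In the uninduced line comparison the malonyl-CoA median was -1.57 and the fatty acid synthesis median 1.09 at a mean of at least 5 RPKM, the latter 0.29 under median ratio scaling, and the regulator median was -1.87 at a pseudocount of 0.1 RPKM. Without length scaling, reads gave Cpt1b shares of 72.5%, 69.4% and 27.7% (uninduced and induced Hey1 line, induced Hey2 line) and Hadha to Hadhb ratios of 3.33, 4.47, 3.53 and 4.35, because the gene models differ in length. The yolk sac and liver marker median turned to 0.65 and 0.44 in the uninduced and induced line comparisons with blanks read as 0, since that adds genes. Counts over all genes moved by over 1.5 times in 22 of 72 cases. With Hey1 induction the 3 higher and 12 lower genes at 2-fold became 15 and 67 at a pseudocount of 0.1 RPKM and 46 and 81 with blanks read as 0, and with Hey2 induction 1 and 4 became 18 and 21, and 47 and 15. At 5 to 4 the Hey1 counts of 361 and 1384 became 652 and 2089 at that pseudocount and 179 and 860 at a mean of at least 5 RPKM. The Hey2 counts of 618 and 648 became 1016 and 995, and 300 and 326. Depth limits Cpt1b most, at 36 and 53 reads in the Hey2 line.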
